A study of Mus musculus with 8 samples.

Results

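The genes of the RUNX transcription factors, *Runx1*, *Runx2* and *Runx3*, and of their partner *Cbfb* were followed at single CpGs in mouse neural precursor cells (NPCs). Members were all CpGs listed in every library from 5 kb upstream of the first transcription start site (TSS) to the gene end, and there were 640 of them among 757812 in the data: 211 in *Runx1*, 197 in *Runx2*, 179 in *Runx3* and 53 in *Cbfb*. The genes were chosen from promoter hypomethylation in one set of libraries, the oxBS comparison of shTet3 with shScr cells described below. That comparison is therefore given as a description, and the tests are on the BS libraries, which the choice did not use but which come from the same DNA.

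The NPCs were derived from A2lox.cre mouse embryonic stem (ES) cells that carried a doxycycline-inducible shRNA, either non-targeting (shScr) or against *Tet3*, which encodes an enzyme that oxidises 5-methylcytosine (5mC) to 5-hydroxymethylcytosine (5hmC). All cells, controls included, were on doxycycline, 2 µg/ml for 5 days, and the ES cells had been expanded on feeder cells. DNA was cut with MspI and each of 2 samples per shRNA was divided: BS libraries (bisulfite alone) read 5mC and 5hmC together, while oxBS libraries (oxidised first) read 5mC alone, which makes 8 libraries with 2 per group. No source states whether the 2 replicates were separate cultures, so their spread may be technical, and the knockdown itself cannot be read from methylation data.

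RUNX proteins bind DNA through the Runt domain as heterodimers with CBFβ, which does not touch DNA itself but stabilises the complex. RUNX1 is known for its role in blood stem cell emergence, RUNX2 in bone and cartilage, and RUNX3 in T cells and in the proprioceptive neurons of the dorsal root ganglia. Each *Runx* gene is transcribed from a distal promoter (P1) and a proximal one (P2), whose proteins differ at the N terminus. Methylated CpG islands at promoters generally go with silent genes, whereas methylated gene bodies are common in active genes too.

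The libraries held between 42516767 and 61865967 CpG calls, with a median coverage of 43 to 54. Over all CpGs tested, the mean BS level reached 26.5% and 31.3% in shScr replicates 1 and 2 against 22.0% and 22.3% in shTet3, so the control replicates stood 4.80 points apart and the knockdown replicates 0.26. This gap between controls touches most values below. Because the DNA is bulk, a level is the share of DNA copies methylated, and a change in every cell cannot be told apart from a change in cell composition. Marker promoters were read beside the labelled cell type, and they do not settle it. That of *Sox2*, a neural precursor marker that ES cells also use, was at 0.138% to 1.12% in the BS libraries. The paper reports SOX2 protein as nearly undetected in its NPCs, so this low level is no check of the label. The promoter of *Pou5f1*, which marks ES cells, was at 37.2% to 54.8%. The ES cell markers *Zfp42* and *Tcl1* were at 28.5% to 68.9% and, over 3 CpGs, at 35.9% to 79.8%. *Esrrb*, another ES cell marker, was at 5.70% to 9.20%, nearer to the neural marker *Nes*, at 4.10% to 6.08%, than to *Pou5f1*. *Pax6*, another neural marker, was at 45.0% and 23.4% in the shScr BS replicates, and the neural marker *Tubb3* was at 2.01% to 4.55% in BS. *Sox1* and *Nanog* had 0 listed promoter CpGs. None of the 4 feeder fibroblast markers had 3 promoter CpGs with enough coverage.

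In mm9, *Runx1* lies on the reverse strand at chr16:92601712-92826311, *Runx2* on the reverse strand at chr17:44632936-44951746, *Runx3* on the forward strand at chr4:134676567-134733905 and *Cbfb* on the forward strand at chr8:107694574-107741886. The members fell on 160 MspI fragments, 42 of which held a CpG called lower in BS. The distal promoters of all 3 *Runx* genes had 0 listed CpGs in the window from -1 kb to +0.5 kb, so every promoter value here is of a proximal or internal promoter. Those distal windows held 14 to 31 CpGs and 1 to 4 MspI sites each, against a median of 49 CpGs and 5 MspI sites over 46006 promoter windows of protein-coding transcripts, and reduced representation libraries read only the ends of MspI fragments. The proximal windows were CpG islands, with 107 CpGs at *Runx1* and 149 at *Runx3*. The letters TGTGGT, a core RUNX motif, occurred 4 to 6 times on either strand in each distal window. In the other windows of the 4 genes they occurred 0 to 3 times. Of all windows, 59.6% held them at least once, a share that cannot be set against counts per window. The CpG-containing variant of this motif, TGCGGT, held 5 of the 640 members. Of these, 3 had coverage in BS and 0 were called there.

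The stretches that carry the promoter results are printed here from the mm9 reference, forward strand, so that the CpGs can be seen in place. Capitals mark the CpGs called in a comparison of shTet3 with shScr. The first is the part of 1 MspI fragment upstream of the *Runx1* P2 TSS where 7 neighbouring CpGs were called in oxBS (chr16:92697756-92697835), and it lies in an intron of the transcript from P1.
Runx1 proximal: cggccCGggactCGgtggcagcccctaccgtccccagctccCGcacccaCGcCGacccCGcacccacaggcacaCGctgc
The second is a pair of CpGs in the 5′ UTR at the *Runx1* internal promoter, at +34 (chr16:92696207-92696236) and +173 (chr16:92696068-92696097) from its upstream TSS, both called in BS.
Runx1 internal, +34: ggttagcaactggcCGcttagtgcgttaaa
Runx1 internal, +173: ctgcaagctgctccCGggagaccaacatac
The third is the upstream edge of the *Runx3* proximal promoter, where 4 CpGs were called in BS (chr4:134707445-134707516), again in an intron of the P1 transcript.
Runx3 proximal: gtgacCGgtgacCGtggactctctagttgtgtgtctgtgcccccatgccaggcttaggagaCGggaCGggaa
The fourth is the single *Runx2* proximal promoter CpG called in BS, at +32 from the last proximal TSS (chr17:44871596-44871625).
Runx2 proximal: gcactctcaacctaCGctcctcgattggca

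Across the 4 genes, promoters were close to unmethylated and bodies were not. In BS, mean promoter methylation over 256 CpGs came to 5.29% ± 0.46 (SD, n = 2) for shScr against 3.77% ± 0.02 (SD, n = 2) for shTet3. Mean body methylation over 323 CpGs was 49.7% ± 6.56 (SD, n = 2) and 39.0% ± 0.07 (SD, n = 2). The shTet3 libraries lay below both shScr libraries in each case, with an exact two-sided permutation p of 0.33, the smallest that 2 against 2 can give. Body CpGs of all protein-coding genes went from 50.3% to 39.4%. The mean body level of these 4 genes moved about as much as that background. Unlike the member bodies, the body background here and below includes the 5 kb upstream of each gene. It also leaves out the promoters of all protein-coding genes, not only a gene's own.

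**Figure D1:**
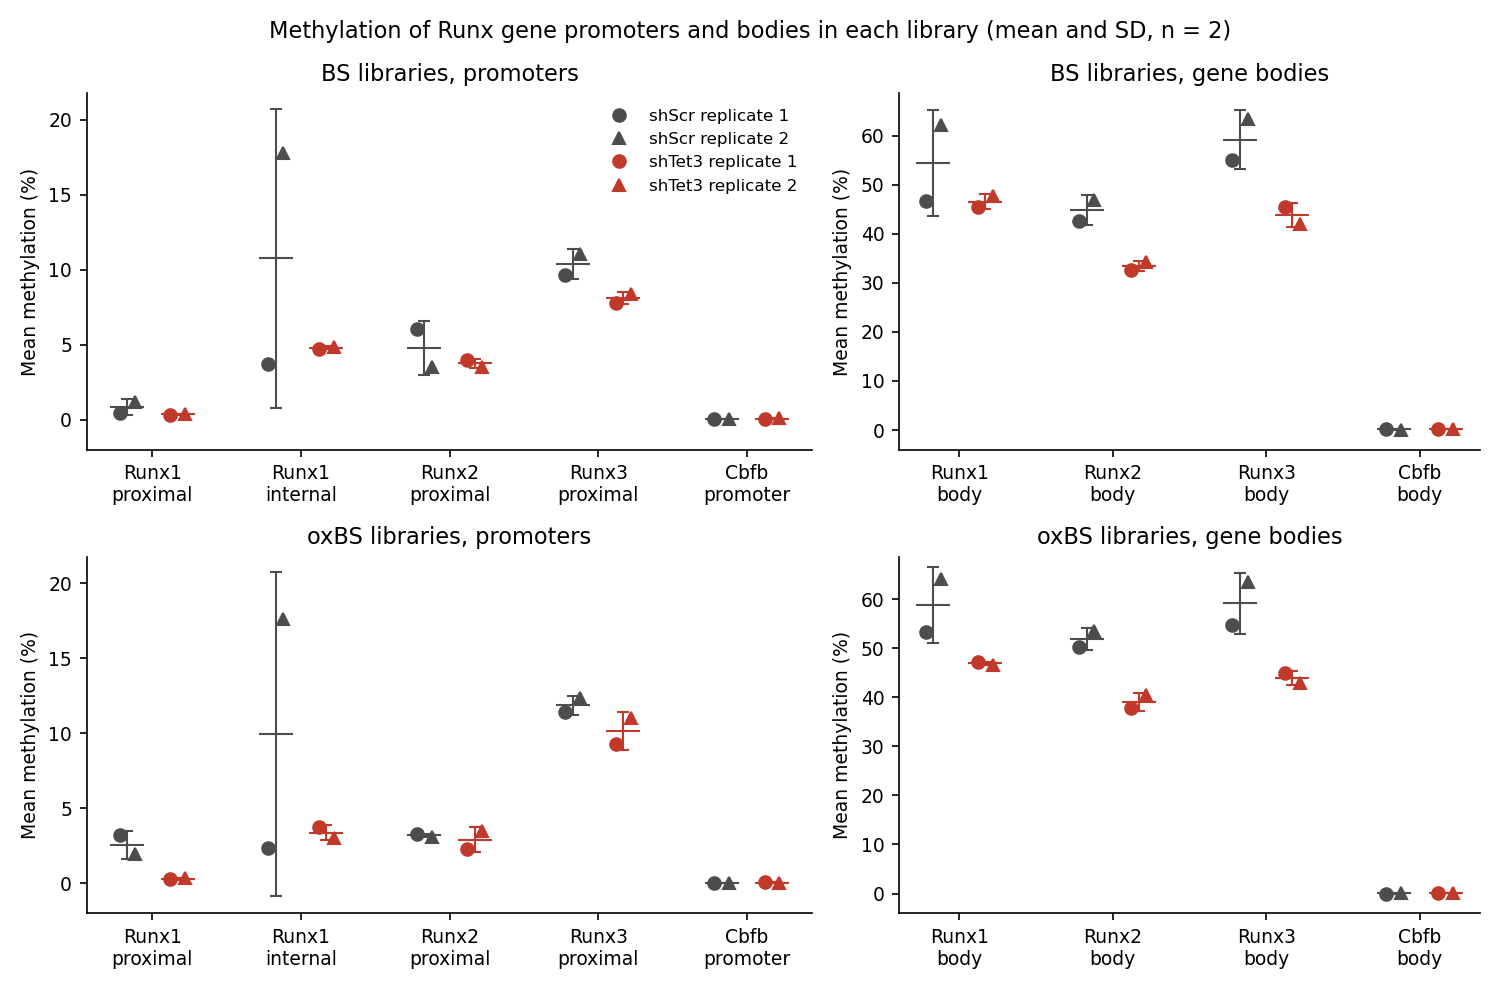
Mean methylation (percent, y axis) of each promoter and gene body in BS (top) and oxBS (bottom) libraries; circles are replicate 1, triangles replicate 2, shScr grey and shTet3 red, with the mean and SD (n = 2). In BS, the *Runx3* body sat at 55.0% and 63.5% in shScr against 45.5% and 42.1% in shTet3, the *Runx1* internal promoter was at 3.72% and 17.8% in the 2 shScr replicates, and *Cbfb* stayed near 0.

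A CpG was called where a logistic test gave an adjusted p (q) under 0.01 over all CpGs tested and the pooled levels differed by more than 10 percentage points. In BS, 7 of 256 promoter CpGs (2.73%) were called lower in shTet3, against 1.86% of promoter CpGs of all protein-coding genes. In the bodies, 69 of 323 CpGs (21.4%) were called lower, against 23.2% of body CpGs genome-wide. No member was called higher in BS, where 0.0621% of all CpGs were. Both shTet3 libraries lay below both shScr libraries at 31 of 256 promoter CpGs (12.1%, background 6.87%) and at 131 of 323 body CpGs (40.6%, background 41.8%). CpGs at 0 in all 4 BS libraries cannot lie apart in this way. They were 97 of the 256 promoter members but 179619 of 321317 promoter CpGs of all protein-coding genes, a larger share.

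The counts moved with single libraries. Without shScr BS replicate 2, the promoter count fell to 3 and the body count to 27, and 3 body CpGs were called higher. Without shScr BS replicate 1, the promoter count was 15 and the body count 88, and without shTet3 BS replicate 1 the promoter count was 4. The counts of all protein-coding genes moved as well. From 5980 promoter and 51407 body CpGs called lower, they went to 3367 and 18559 without shScr BS replicate 2. Body CpGs called higher then went from 201 to 1146. Without shScr BS replicate 1 the lower counts were 8206 and 64280, and without shTet3 BS replicate 1 the promoter count was 3452. The test has no term for spread between replicates: with an overdispersion correction (F test, q under 0.01), 0 members and 0 of all 659124 CpGs were called, and at an unadjusted p under 0.05 with a fall of over 10 points there were 0 promoter and 11 body members (3.41%), against 0.21% and 3.02% of the CpGs of all protein-coding genes.

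The genes were chosen with results of the oxBS libraries known, and nothing is read from the counts in these libraries. In them, 14 of 242 promoter CpGs were called lower (background 2.00%) and 75 of 321 body CpGs (background 22.7%), and 1 body CpG was called higher (background 0.0814%). The calls in the 2 kinds of library overlapped in part. Of the 12 oxBS promoter calls that had coverage in BS, 2 (16.7%) were also called in BS, and these were 28.6% of the 7 BS promoter calls. Of 69 such body calls, 31 (44.9%) were called in BS too, and 67 had a BS difference below 0, with a median of -17.8 points. Because the 2 kinds of library share DNA, a call in oxBS itself favours that direction in BS. Of all 323 body CpGs covered in BS, 240 had a lower mean level in shTet3. So did 169224 of 221905 body CpGs of all protein-coding genes. Among promoter CpGs the smallest called oxBS difference was -10.61 points, at +173 of the *Runx1* internal promoter with q of 0.0002, and the CpG at +34 lay just outside with -10.38 points and q of 0.014.

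*Runx1* was read at a proximal and an internal promoter, which differed in level. The proximal promoter, over 46 CpGs in BS, was at 0.47% and 1.20% in shScr against 0.33% and 0.37% in shTet3. In BS, 0 of these 46 CpGs were called. The internal promoter, over 23 CpGs, was at 3.72% and 17.8% in shScr against 4.73% and 4.86% in shTet3, and 2 of its CpGs were called.

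The 7 proximal CpGs called in oxBS are those printed above, at -257 to -188 from the P2 TSS. Their mean oxBS level, 18.8% and 7.51% in shScr, was 0 in both shTet3 replicates. Each of the 7 rested on 7 methylated calls in shScr oxBS replicate 1 and 3 in replicate 2. All 7 lie on 1 fragment of 159 bp and can share reads, so they are not independent. Their calls were kept without shScr oxBS replicate 2 and lost without shScr oxBS replicate 1 or either shTet3 oxBS replicate. At -224, for example, shScr oxBS had 10 of 77 calls methylated (13.0%, 95% Wilson interval 7.21% to 22.3%).

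At the same 7 CpGs all 4 BS libraries were at 0. At -224 the shScr BS libraries had 0 of 45 calls methylated, with a Wilson upper limit of 7.87% that overlaps the oxBS interval, and the shTet3 BS libraries 0 of 53, with an upper limit of 6.76%. By 3 counts of the total these allow a share of up to 6.67% and 5.66%, and all of these limits cover counting error only. In shScr the difference, BS minus oxBS, was -12.99 points at -224 and was not called (q of 0.073). BS coverage was thin here, 9 in shTet3 replicate 2 at 2 of the CpGs, so only 5 of the 7 could be compared in BS. The other 43 CpGs of the proximal promoter were at 0.69% and 1.0% in shScr oxBS and 0.30% and 0.40% in shTet3 oxBS, and 0 of them were called.

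At the internal promoter the 2 shScr replicates disagreed, and shTet3 resembled shScr replicate 1. At +34 the BS level was 6.0% and 38.4% in shScr against 4.7% and 7.2% in shTet3, a pooled difference of -15.32 points (q of 6.3e-05, logistic test with Benjamini-Hochberg adjustment), and the groups overlapped. At +173 it was 3.0% and 20.8% in shScr against 2.1% and 1.8% in shTet3, a difference of -12.22 points (q of 1.1e-05) with no overlap. Without shScr BS replicate 2 neither was called, and without shTet3 BS replicate 1 that at +34 was not. The oxBS libraries showed the same split, with 2.34% and 17.6% in shScr against 3.74% and 3.01% in shTet3 over the 23 CpGs. Here the oxBS calls were at -165, +173 and -25 from the nearest internal TSS, and without shScr oxBS replicate 2 the difference at +173 was 3.52 points, in the other direction.

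**Figure D2:**
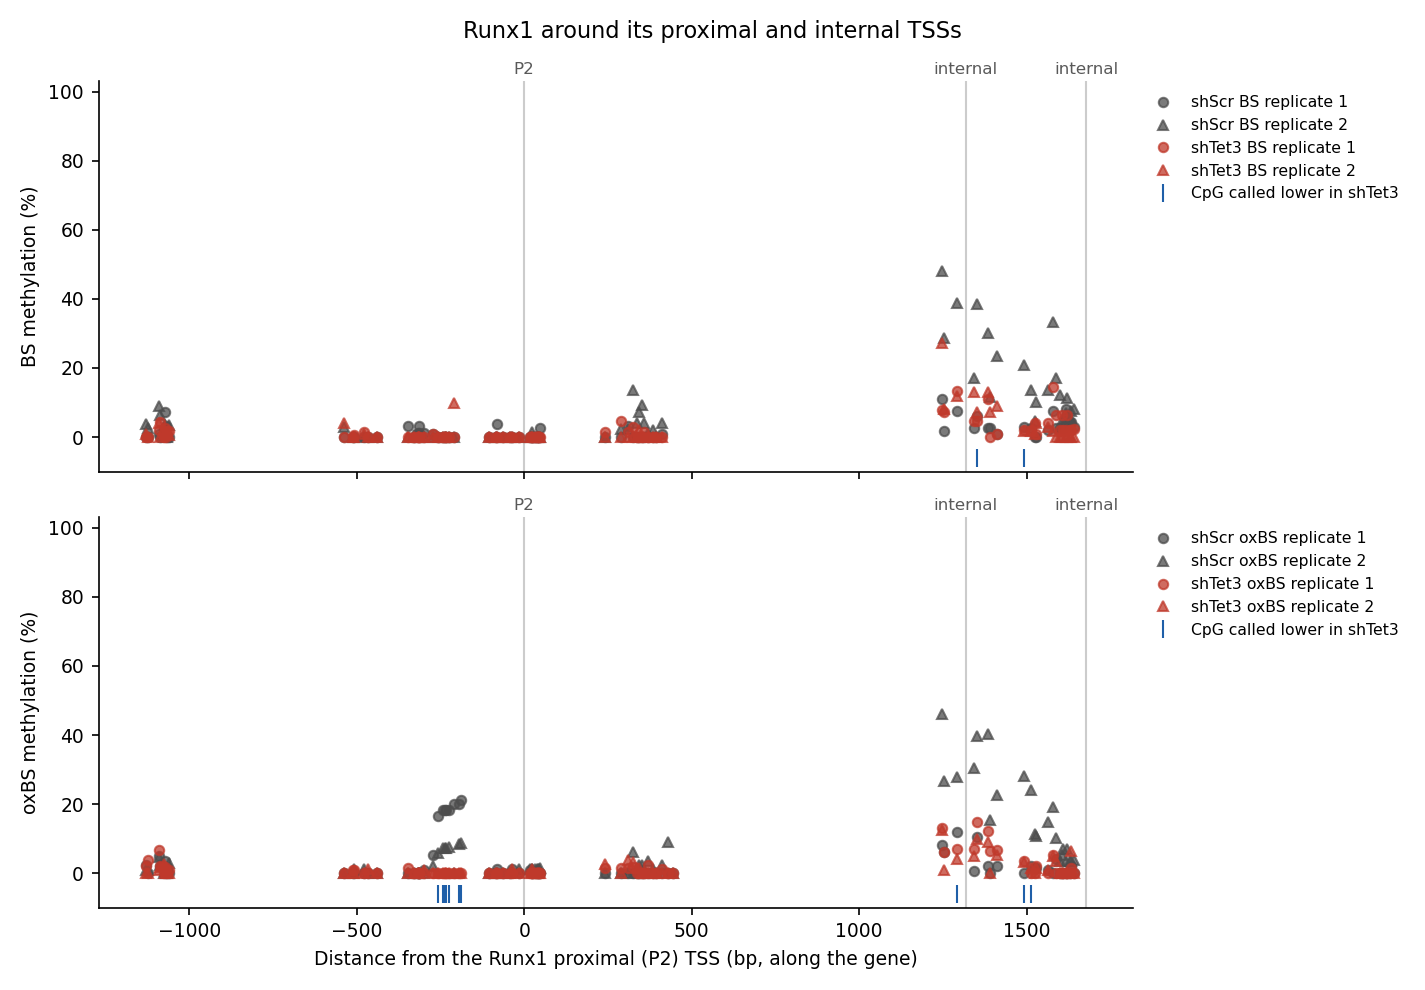
Methylation (percent, y axis) of each covered *Runx1* CpG against its distance from the P2 TSS (bp along the gene, x axis), BS above and oxBS below; circles are replicate 1, triangles replicate 2, shScr grey, shTet3 red, and blue ticks mark CpGs called lower. The 7 oxBS ticks upstream of P2 sit where shScr oxBS averaged 18.8% and 7.51% and every BS library was at 0, and shScr replicate 2 stands above the other libraries at most CpGs around the internal TSSs in both panels.

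The *Runx1* body was at 46.8% and 62.2% in shScr BS against 45.5% and 47.7% in shTet3 BS over 113 CpGs, a difference of -7.89 points with an exact permutation p of 0.67. The groups differed by less than the shScr replicates did among themselves (15.4 points). In BS 18 of 113 CpGs (15.9%) were called lower, and both shTet3 libraries lay below both shScr libraries at 31 (27.4%), under the background shares given above. Without shScr BS replicate 2 the count was 6, without shTet3 BS replicate 1 it was 11, and without shScr BS replicate 1 it was 33.

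Of the body calls that did not overlap between groups, the one with the largest BS difference lay in a coding exon at +6589 from the nearest TSS. It read 83.0% and 87.6% in shScr against 39.3% and 56.9% in shTet3, a difference of -36.3 points (q of 9e-13). It was called with any 1 BS library left out, and 7 of the 14 CpGs on its fragment were called lower in BS. An intronic CpG at +16571 read 86.4% and 95.2% against 66.7% and 43.5% (q of 1.7e-06), and one at +922, just inside the gene from P1, read 69.9% and 86.8% against 40.7% and 52.2% (q of 3.6e-05). The first of these lost its call without shTet3 BS replicate 2, and the second without shScr BS replicate 2 or shTet3 BS replicate 1.

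A coding exon near the 3′ end of *Runx1* differed in pattern. Over 20 CpGs of 1 fragment the shScr oxBS replicates were at 56.5% and 89.6%, and the shTet3 replicates, 65.1% and 69.1%, fell between them. One of these CpGs, at +89638, was the single member called higher in oxBS (35.9% and 90.9% in shScr, 67.6% and 81.2% in shTet3, 18.9 points higher in the pooled counts), and its BS difference, 9.75 points, was not called. Without shScr oxBS replicate 1 the oxBS difference turned to -17.0 points.

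*Runx2* had a near-empty proximal promoter and a body that was lower in both shTet3 libraries. Its 5 proximal TSSs were taken as 1 promoter, and over 104 CpGs the BS level was 6.07% and 3.51% in shScr against 3.98% and 3.54% in shTet3 (exact permutation p of 1, groups overlapping). Of these CpGs, 40 were at 0 in all 4 BS libraries. Of the proximal CpGs, 68 members also lie inside Gm10497, a processed transcript on the opposite strand.

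One *Runx2* promoter CpG was called in BS and 3 others in oxBS, with 0 shared. The BS call at +32 read 29.1% and 20% in shScr against 15.7% and 4.3% in shTet3 (-14.35 points, q of 0.00046; not called without shScr BS replicate 1 or shTet3 BS replicate 2), whereas the oxBS libraries read 6.8% and 13.5% against 14.8% and 11.5%. The oxBS call at -889 read 66.3% and 25.3% against 14.4% and 26.2%, so it overlapped between groups. In BS that CpG was at 44.3% and 38.5% against 25.4% and 28.3%, lower in both shTet3 libraries but not called (q of 0.034). The remaining oxBS calls, at -973 and +166, had BS differences of -7.66 and -1.72 points, neither called.

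In the *Runx2* body, BS methylation over 74 CpGs was 42.7% and 46.9% in shScr against 32.7% and 34.2% in shTet3, a difference of -11.4 points (exact permutation p of 0.33, the smallest possible). This mean mixes unlike parts. The 27 CpGs within 1 kb of the start of *Supt3h*, which encodes a subunit of transcriptional coactivator complexes and begins on the opposite strand inside *Runx2*, were at 0.07% to 1.07% in every BS library. Without them the body was at 67.1% and 73.3% in shScr against 51.4% and 53.4% in shTet3, a difference of -17.9 points.

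In BS 17 *Runx2* body CpGs (23.0%) were called lower and 28 (37.8%) did not overlap. Without shScr BS replicate 2 the count was 6, and without shTet3 BS replicate 1 it was 9. The largest non-overlapping fall was in an intron at +82918, with 91.7% and 90.9% in shScr against 16.7% and 63.2% in shTet3 at a coverage of 11 to 19 (-50.8 points, q of 0.00047). A CpG on the same fragment, at +82903, read 75% and 92.0% against 33.3% and 55.3% (-38.3 points, q of 8.4e-05). Both lost their calls without shScr BS replicate 2 or shTet3 BS replicate 1, and the first also without shScr BS replicate 1. Another intronic CpG at +161526 read 75% and 82.4% against 38.5% and 40.7% (q of 0.0044), and it lost its call without any 1 of the 4 libraries.

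*Runx3* had the most methylated promoter edge and, over whole bodies, the largest share of called body CpGs of the 4 genes. Without the CpGs near the *Supt3h* start, the *Runx2* body had 17 of 47 called lower in BS. That is a larger share than the 34 of 111 in the *Runx3* body. Its proximal promoter, over 55 CpGs, was at 9.67% and 11.1% in shScr BS against 7.81% and 8.40% in shTet3 BS, a difference of -2.26 points (exact permutation p of 0.33). That difference lay in the printed fragment at the upstream edge, where 4 CpGs averaged 84.3% and 95.3% in shScr against 63.0% and 61.5% in shTet3. The other 51 CpGs, at -285 to +485, were at 3.81% and 4.46% against 3.48% and 4.23%, and 0 of them were called.

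All 4 edge CpGs were called in BS with no overlap between groups. At -905 the level was 85.0% and 95% in shScr against 61.5% and 38.5% in shTet3 (-31.1 points, q of 3.6e-05), and it was called with any 1 BS library left out. At -900 it was 63.3% and 95% against 51.1% and 38.5% (q of 0.0089), and at -954 it was 94.8% and 100% against 69.6% and 84.6% (q of 0.00028). At -961 it was 94.1% and 91.3% against 69.6% and 84.6% (q of 0.008). Without shTet3 BS replicate 1 these last 3 were not called; that at -900 was also lost without shScr BS replicate 2 or shTet3 BS replicate 2, that at -954 without shScr BS replicate 1, and that at -961 without either shScr BS replicate. In oxBS the same CpGs averaged 77.0% and 88.6% in shScr against 62.3% and 75.3% in shTet3, and 1 of them, at -954, was called. They share a fragment and lie within the promoter window only by its definition of -1 kb: they are 900 bp or more from the TSS.

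Downstream of the island the *Runx3* gene was methylated at intermediate to high levels. From +509 to +3798, 53 body CpGs were at 55.0% and 61.9% in shScr BS against 45.2% and 42.1% in shTet3 BS, and 17 were called lower. Non-coding exons of *Runx3* are annotated there, and taking every annotated transcript's TSS, the promoter difference grew to -7.07 points. Between the distal and proximal promoters, 28 CpGs were at 53.5% and 60.8% against 42.0% and 36.1%, with 10 called lower.

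Over the whole *Runx3* body, BS methylation was 55.0% and 63.5% in shScr against 45.5% and 42.1% in shTet3 (111 CpGs, -15.4 points, exact permutation p of 0.33). In BS 34 CpGs (30.6%) were called lower and 72 (64.9%) did not overlap, above the background shares of 23.2% and 41.8%. Of the covered *Runx3* body CpGs, 5.41% were under 10% in shScr BS, against 26.5% of body CpGs genome-wide. Without shScr BS replicate 2 the count was 15, and without shTet3 BS replicate 2 it was 18.

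The 3 *Runx3* body CpGs with the largest non-overlapping falls were intronic. At -13482 from P2, BS levels were 80% and 100% in shScr against 52.9% and 38.5% in shTet3 at a coverage of 10 to 17 (-45.0 points, q of 0.0023). At +9149 they were 56.2% and 93.1% against 51.1% and 23.1% (q of 6.7e-05), and at +9202, on the same fragment, 68.8% and 96.6% against 62.2% and 39.5% (q of 0.00054). All 3 lost their calls without shScr BS replicate 2 and without shTet3 BS replicate 2. Of the 3 members in the 5 kb upstream of *Runx3*, 1 was called lower in BS, and all 3 also lie inside Gm16225 on the other strand.

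**Figure D3:**
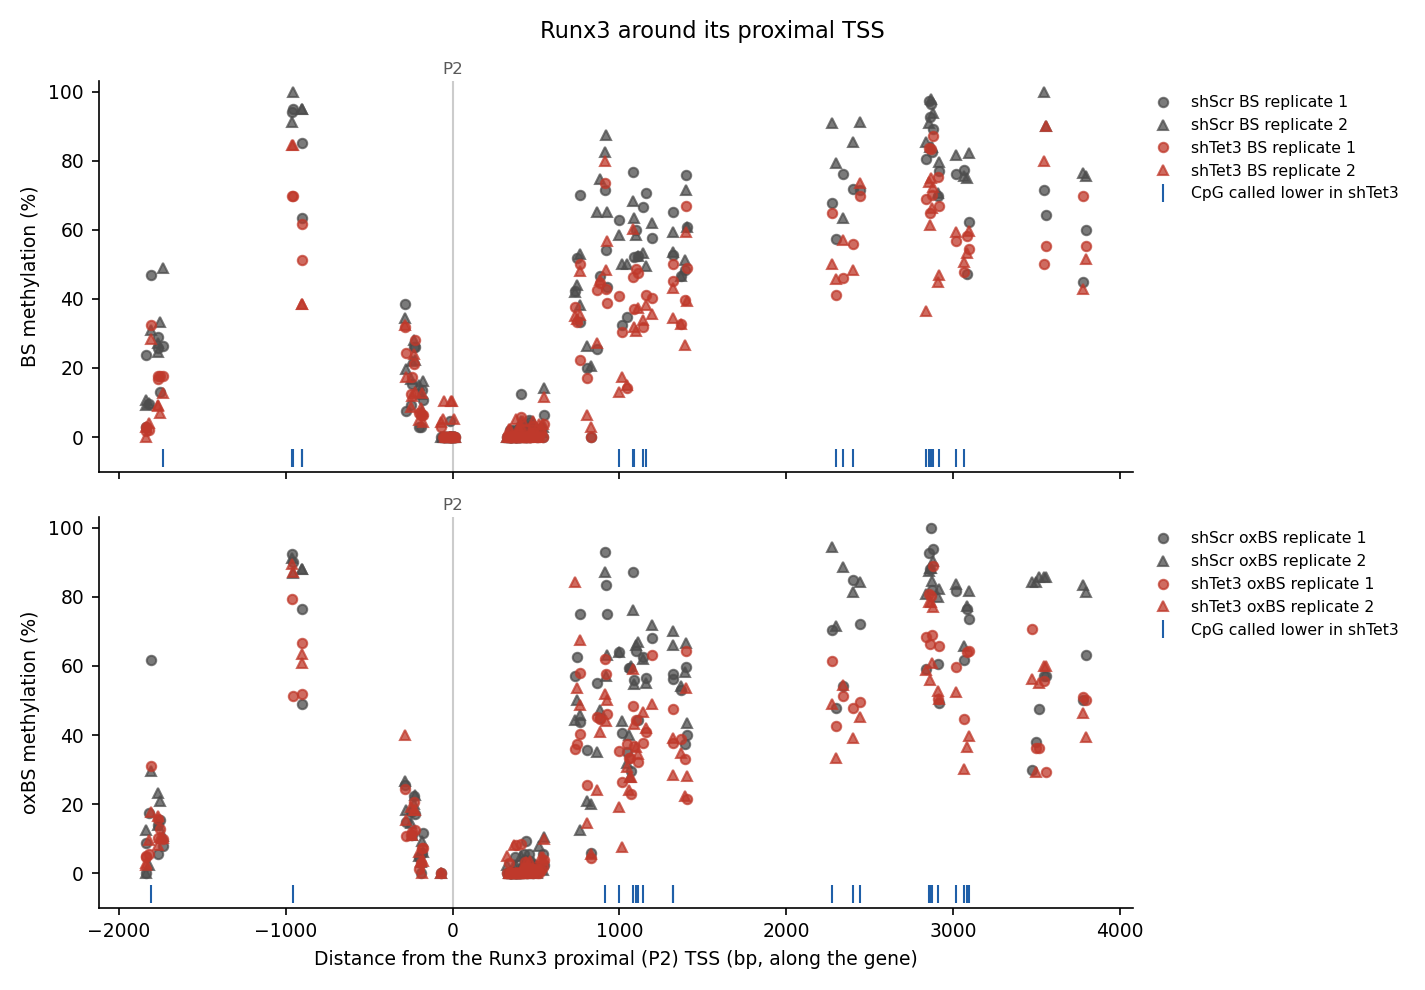
Methylation (percent, y axis) of each covered *Runx3* CpG against its distance from the P2 TSS (bp along the gene, x axis), BS above and oxBS below; circles are replicate 1, triangles replicate 2, shScr grey, shTet3 red, and blue ticks mark CpGs called lower. The 51 CpGs around the TSS averaged 3.48% to 4.46% in BS, while the 4 CpGs near the upstream edge and those from +509 on are higher and carry the calls.

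*Cbfb*, the gene of the shared partner subunit, was unmethylated throughout. Its 53 CpGs lie between +73 and +1021 from its TSS, on chromosome 8, and 34 of them were at 0 in all 8 libraries. In all, 39 of 50627 calls were methylated (0.077%), and the highest value was 5.88%, 2 of 34 calls. The coverage was 16 to 425, and 0 CpGs were called in any comparison. Its distal body was not read.

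The falls were also compared at CpGs of like starting level. Among CpGs with coverage in all 8 libraries, those above 40% in shScr oxBS were taken. These libraries are other portions of the shScr samples compared, with replicate deviations correlated at 0.52. The choice is therefore not independent of the comparison and itself favours differences below 0, in the genes and genome-wide alike. The BS difference had a median of -11.3 points at 77 such *Runx1* CpGs, -18.8 at 41 in *Runx2*, -17.9 at 91 in *Runx3* and -16.8 at 219287 in the whole genome. It was below 0 at 76.6% of them in *Runx1*, 97.6% in *Runx2*, 96.7% in *Runx3* and 94.6% genome-wide. The *Runx1* CpGs were at 64.5% and 84.0% in the shScr BS replicates, a wider gap than in *Runx2* (68.4% and 76.7%) or *Runx3* (65.0% and 74.0%).

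**Figure D4:**
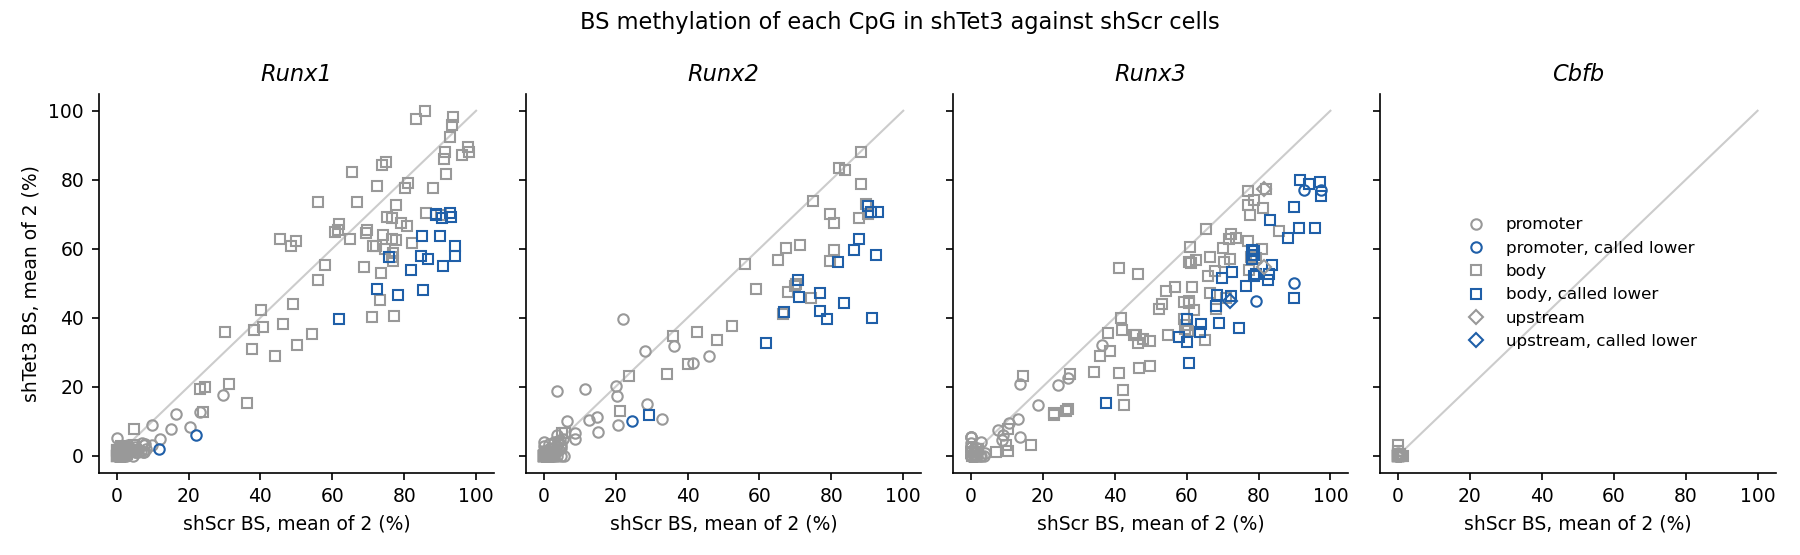
BS methylation of each covered CpG in shTet3 (y axis, mean of 2 replicates, percent) against shScr (x axis, mean of 2 replicates, percent), 1 panel per gene; circles are promoter, squares body and diamonds upstream CpGs, blue where called lower. Nearly all blue points lie at high shScr levels, below the diagonal of equal levels, and *Cbfb* CpGs cluster at 0.

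BS against oxBS libraries of the same shRNA asks where 5hmC is detectable, and calls with BS below oxBS, a direction that 5hmC does not give, were counted beside it. In shScr, 5 of 306 body CpGs of the 4 genes (1.63%) were called with BS above oxBS (0.330% of all CpGs were). With BS below, 1 was called (0.327%, against 0.170% of all CpGs). In shTet3, 1 of 329 body CpGs (0.304%) was called above (0.0239% of all CpGs) and 0 below (0.0141%). Of body CpGs of all protein-coding genes, 0.567% were called above and 0.284% below in shScr. In shTet3 these shares were 0.0356% and 0.0274%. No promoter CpG of the 4 genes was called either way in shScr or shTet3. Since the BS and oxBS portions of a sample share their number, the test was also run within replicates, and then 2 CpGs were called above and 2 below in shScr.

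Of the 3 *Runx3* calls in shScr, 2 kept their call within replicates. An intronic CpG at -1737 from P2 read 26.3% and 48.9% in shScr BS and 7.9% and 10.7% in shScr oxBS, a difference of 29.7 points (q of 0.0047), and its shTet3 values were 17.7% and 12.7% in BS and 10% and 10.2% in oxBS. In a coding exon, a CpG at +23296 read 96.7% and 97.8% in BS and 74.2% and 91.7% in oxBS (15.9 points, q of 0.0029). The third, at +2836, was not called within replicates. The shTet3 call, at +2443, read 69.8% and 73.6% in BS and 49.6% and 45.1% in oxBS (22.9 points, q of 0.0077).

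The 2 *Runx1* calls in shScr, at +89714 and +89633 in the same coding exon as the CpG called higher, were not called within replicates, and both rested on shScr oxBS replicate 1, at 34.0% and 38.5%. The call with BS below oxBS was in a *Runx2* intron at +229926, where shScr read 53.5% and 80.4% in BS and 85.6% and 81.9% in oxBS (-22.4 points, q of 0.0016).

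**Figure D5:**
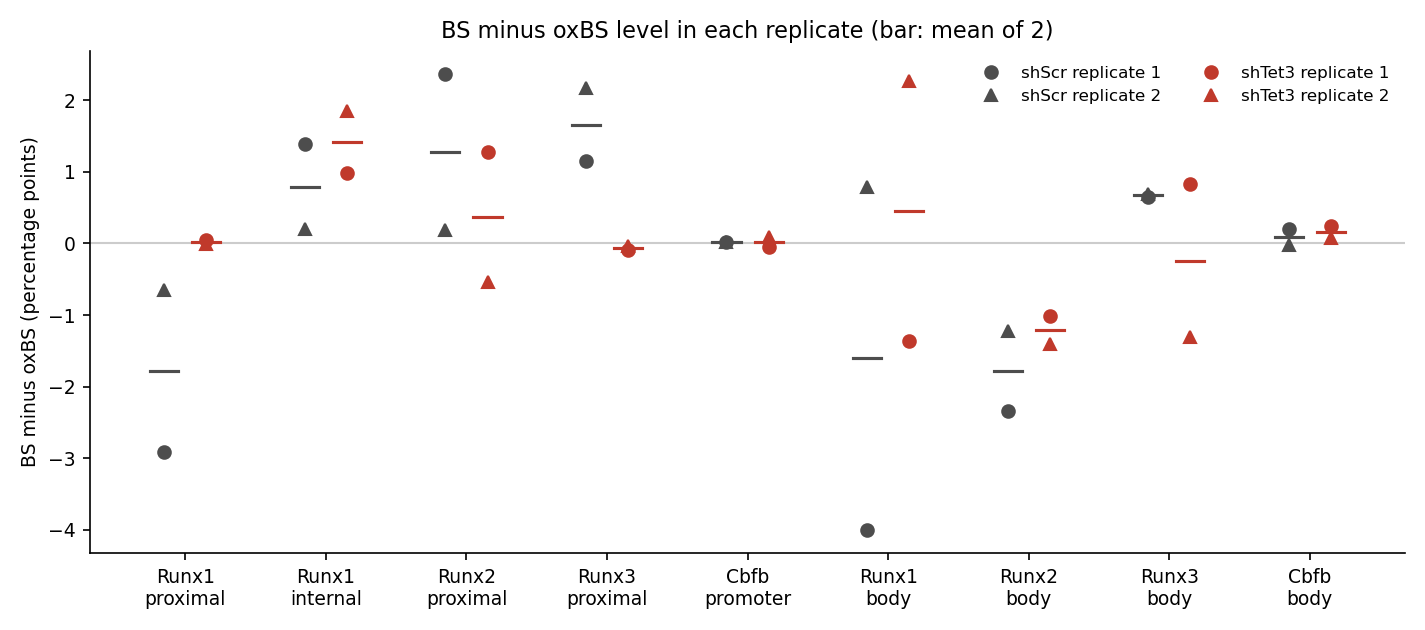
BS minus oxBS methylation (percentage points, y axis) averaged over each promoter and body (x axis), for each replicate (circle 1, triangle 2) of shScr (grey) and shTet3 (red), with a bar at the mean of 2. Values range from -4.01 to 2.38 points, both in shScr replicate 1, in the *Runx1* body and the *Runx2* promoter.

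The genes whose pooled promoter level was most like a member's over the 8 libraries were sought among 9915 genes with 10 or more promoter CpGs covered in all of them. For *Runx1* these included *Uba2* and *Plekhm2*, with mean absolute differences of 0.52 and 0.61 points. Both share the high shScr replicate 2, which the matching over these libraries itself favours: *Uba2* was at 2.27% and 6.31% in shScr BS, and *Runx1* at 1.55% and 6.74%. For *Runx3* they were *Nxnl2*, *Spag4* and *Steap3*, at 0.60, 0.72 and 0.72 points. *Runx2* and *Cbfb* varied by under 5 points and were not matched.

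Of the genes that work with or under RUNX, those that could be read mostly differed little. Among 43 partners, modifiers and known targets, 26 had 3 or more promoter CpGs covered in BS. They were 21 of 23 partners and modifiers but 5 of 20 known targets, so most targets were not read. Of the 26, 3 (11.5%) had 3 or more CpGs called lower, against 6.44% of all such genes. In oxBS it was also 3 of 26, against 6.68%. No list gene had 3 CpGs called higher in either. The median BS difference was -0.06 points, against -0.13 for all genes.

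The 3 genes were the same in both kinds of library. *Itga2b*, which encodes the megakaryocyte integrin αIIb and is a target of RUNX1 in blood, had 6 of 8 promoter CpGs called lower in BS, with means of 73.2% and 88.5% in shScr against 60.4% and 62.2% in shTet3. *Tle2*, of the Groucho corepressor family that binds the RUNX C terminus, had 6 of 31, with 47.9% and 60.8% against 45.9% and 42.3%. *Cbfa2t3*, a corepressor of the ETO family to which the leukaemic fusion partner of RUNX1 belongs, had 3 of 86, with 8.93% and 9.90% against 7.66% and 6.77%. The promoters of *Tle1*, *Tle4*, *Ets1*, *Ep300* and *Crebbp* were under 0.4% in every BS library.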

How the data were processed

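Per the labels, the libraries were oxidative reduced representation bisulfite libraries aligned to mm9, and Trim Galore, Bismark and methylKit are named in the submitters' processing notes. The deposited tables give the coverage of each CpG as counts and, as the authors' percent values, the methylated and unmethylated share. Percent times coverage gave whole methylated counts, and all 757812 positions were CG in the mm9 reference; whether both strands were merged is not given in the sources used here. Each CpG with coverage of 10 or more in the 4 libraries compared was fitted by logistic regression on the group (likelihood ratio test without overdispersion, after the study's use of methylKit), and p-values were Benjamini-Hochberg adjusted over all CpGs. Calls needed q under 0.01 and a pooled difference over 10 points. Mean levels are unweighted over CpGs. Promoters run from -1 kb to +0.5 kb of TSSs of protein-coding transcripts (GENCODE). Other member CpGs between gene start and end are body. Body backgrounds took the CpGs of protein-coding genes and their 5 kb upstream that lay outside every such promoter. Named CpGs were promoter CpGs called in either kind of library, the 3 non-overlapping body calls per gene with the largest BS difference, CpGs called higher, and, added after their values were seen, those called between BS and oxBS. Members, lists and the split by starting level were chosen with earlier results of these data known. One portion of each sample was oxidised, so numbers pair BS with oxBS (deviations correlated at 0.52 in shScr and 0.26 in shTet3). Scripts ran in Python with numpy and scipy and were tested on data with known changes. Other coverage minimums, tests, windows and left-out libraries were tried. One gene named by the likeness rule is not reported here.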

Additional observations from a re-analysis of the deposited data

Results flagged for a closer look

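In 3 regions, averaged over the CpGs covered within each shRNA, every shScr replicate moved one way between BS and oxBS. Every shTet3 replicate moved the other way. The regions were picked for this pattern from all promoter, body and upstream averages of the *Runx* genes and *Cbfb*. With so few replicates some regions can show it by chance, and how many would do so was not tested. The differences between the shRNAs were not tested either. Over the *Runx1* promoters, BS minus oxBS was -1.52 and -0.38 points in the shScr replicates and 0.37 and 0.61 points in the shTet3 replicates, a difference of -1.44 points between the means. The proximal promoter alone was at -2.91 and -0.65 points in shScr, and it holds the fragment with the 7 oxBS calls, while the internal promoter was above 0 in both shRNAs, at 1.39 and 0.20 points in shScr and 0.99 and 1.85 in shTet3. Over the *Runx3* proximal promoter it was 1.15 and 2.17 points in shScr and -0.09 and -0.04 points in shTet3, a difference of 1.73 points. These averages cover 42 CpGs in shScr and 55 in shTet3. Over the 42 CpGs covered in all 8 libraries, a comparison chosen after seeing the data, the shTet3 replicates were at 0.97 and -1.05 points, so the opposite movement was lost. At the 3 CpGs upstream of *Runx3* it was 2.23 and 8.55 points in shScr and -10.5 and -5.06 points in shTet3, a difference of 13.2 points. The last rests on 54 to 110 calls per library.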

How the results depend on the processing

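Single CpGs are limited by 2 libraries per group and, at several named CpGs, by a coverage of 9 to 19; the cause of the changes below was not tested. With an overdispersion correction the counts of called members became 0 in every comparison: from 14 promoter and 75 body CpGs lower and 1 higher in oxBS, 7 and 69 lower in BS, 5 above and 1 below between BS and oxBS in shScr and 1 above in shTet3, and the RUNX list genes went from 3 to 0 in both kinds of library. Fisher's exact test gave 7 promoter CpGs lower in oxBS, 2 CpGs with BS above oxBS in shScr and 0 in shTet3. A coverage minimum of 20 gave 2 body CpGs higher in oxBS. Promoters from -2 to +1 kb held 26 oxBS and 12 BS calls, and the TSSs of every transcript 24 and 15, while the wider window gave 5 list genes in BS.

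Mean differences also moved. That of the *Runx2* body in BS went from -11.4 points to -15.3 at a coverage minimum of 20 and to -7.67 when weighted by reads, and in oxBS to -9.59 by reads. The *Runx3* promoter in BS went from -2.26 to -0.815 by reads, -5.20 in the wider window and -7.07 with every TSS, and in oxBS from -1.71 to -3.59 and -7.75 in the latter 2. The *Runx2* promoter in oxBS went from -0.308 to -1.25 in the wider window. The *Cbfb* body went from 0.0864 to -0.0205 by reads and 0.294 in the wider window in BS, and to 0.321 in the wider window in oxBS.

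The shTet3 and shScr samples share only a replicate number (correlation of deviations -0.03 in BS and -0.04 in oxBS). A replicate block gave 7 promoter and 79 body CpGs lower in BS, 15 and 76 in oxBS, and 0 higher in oxBS. Within the pairs of BS and oxBS portions it gave 2 CpGs above and 2 below in shScr.

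Leaving out 1 library at a time, the oxBS counts ran from 4 to 14 promoter and 36 to 88 body CpGs lower and 0 to 6 higher. The BS counts ran from 3 to 15, 27 to 88 and 0 to 3. Between BS and oxBS, shScr ran from 0 to 23 above and 1 to 18 below, and shTet3 from 0 to 1 in each direction. Counts over all CpGs also ran widely. Those called lower ran from 39266 to 116537 in oxBS and from 33604 to 114834 in BS. Between BS and oxBS in shScr, they ran from 1076 to 20055 above and 1098 to 11609 below. The body difference ran from -15.7 to -1.59 points in *Runx1* and -13.6 to -9.13 in *Runx2* in BS, and from -17.5 to -6.55 in *Runx1* in oxBS. Among the named CpGs, 4 called differences changed sign: *Runx1* +173 in oxBS, at 3.52 points without shScr oxBS replicate 2 (-24.7 without replicate 1), and 3 without shScr oxBS replicate 1: +89638 in oxBS at -17.0, and BS minus oxBS at +89714 and +89633 at -12.3 and -15.1. Without shScr oxBS replicate 2 these 3 were at 38.0, 42.2 and 41.0.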
